A study of Mus musculus with 10 samples.

Results

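The genes examined here encode complement and coagulation factors, proteins that the liver secretes into blood, and they were followed in livers of Tgfbr2+/- mice, which keep 1 working copy of the gene for type II TGF-beta receptor. The members are a list of 38 gene symbols, 18 of complement and 20 of coagulation, matched to the symbols that the platform annotation gives to the array's probes. Of these, 21 were measured, 7 of complement and 14 of coagulation, among 16383 genes in all, each by a single probe. The other 17 had no probe under their symbol in the annotation used here and were dropped. They were C1ra, Mbl2, C3, C4b, Cfb, Cfd, C4bp, Cfi, Hc, C8a and C8g of complement, and Kng1, Fga, Fgg, Proc, Plg and Cpb2 of coagulation. No value here therefore speaks for C3, for the alternative pathway proteins or for the fluid-phase regulators.

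Livers of 6 Tgfbr2+/- mice were compared with those of 4 wild-type littermates, all on chow diet, on 2-colour arrays. Each of the 10 libraries is 1 mouse set against pooled RNA of 6 wild-type livers. Males are named in the titles of the heterozygous samples, while no sex is stated for wild type. Age, strain and the construction of the mutant allele are not given in the sources used here. No promoter or cell type is named that would limit the loss of the allele to some cells. Values are log2 ratios over the pool, and means carry their SD. The mean of 3 Y-linked genes lay between -0.14 and 0.10 in heterozygous libraries and between -0.08 and 0.02 in wild type. The sex of the wild-type mice was not tested. A difference is Tgfbr2+/- minus wild type with its SE, taken from a limma fit across all genes. Adjusted p-values are Benjamini-Hochberg values over all 16383 genes. Square intervals such as [0.09, 0.75] are 95% intervals of a difference.

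Complement is a cascade of plasma proteins that marks microbes and damaged cells for removal. It is started by the C1 complex on antibodies, by lectins such as Mbl1 with their proteases Masp1 and Masp2 on sugars, or by spontaneous turnover of C3. All routes lead to the terminal components, which assemble stepwise into the membrane attack complex, a pore in which C9 is the last and most numerous subunit. Coagulation is a second protease cascade. A contact branch (F12, F11, prekallikrein) and a tissue factor branch (F7) meet at F10, which with its cofactor F5 activates prothrombin, F2, and thrombin then turns fibrinogen into fibrin. Hepatocytes make most of these proteins, while F8 and Vwf come mainly from endothelial cells, and several of the hepatocyte products are raised during the acute phase response to inflammation.

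The promoters of the terminal components and of the fibrinogen chain gene Fgb are printed because C9 and C8b were, with C2, the members of widest difference between the groups, while Fgb, a textbook acute phase gene, stayed near the pool. Sequences are from RefSeq, build GRCm38.p6, from 250 bases before to 50 bases after the gene's start, 5′ to 3′ on the gene's strand. Capitals mark matches, on either strand, to the C/EBP pattern TTGCNNAA or the STAT pattern TTCNNNGAA.
C9 promoter (chr15:6445096-6445395, + strand): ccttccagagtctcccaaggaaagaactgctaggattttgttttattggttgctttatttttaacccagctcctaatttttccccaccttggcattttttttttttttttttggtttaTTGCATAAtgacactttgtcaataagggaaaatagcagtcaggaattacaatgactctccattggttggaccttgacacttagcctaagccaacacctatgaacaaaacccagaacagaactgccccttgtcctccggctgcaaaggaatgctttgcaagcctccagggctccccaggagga
C8b promoter (chr4:104766067-104766366, + strand): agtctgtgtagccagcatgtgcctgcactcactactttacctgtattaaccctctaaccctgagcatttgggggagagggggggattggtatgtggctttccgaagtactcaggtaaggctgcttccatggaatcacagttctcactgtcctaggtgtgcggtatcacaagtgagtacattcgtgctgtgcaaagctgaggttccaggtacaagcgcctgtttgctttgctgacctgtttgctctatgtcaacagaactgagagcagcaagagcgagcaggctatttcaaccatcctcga
C6 promoter (chr15:4726960-4727259, + strand): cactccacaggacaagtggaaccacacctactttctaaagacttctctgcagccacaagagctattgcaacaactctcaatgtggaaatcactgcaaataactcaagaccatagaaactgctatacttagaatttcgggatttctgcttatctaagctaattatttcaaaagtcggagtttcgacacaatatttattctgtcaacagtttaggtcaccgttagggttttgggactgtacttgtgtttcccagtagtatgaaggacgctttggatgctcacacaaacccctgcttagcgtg
Fgb promoter (chr3:83049814-83050113, - strand): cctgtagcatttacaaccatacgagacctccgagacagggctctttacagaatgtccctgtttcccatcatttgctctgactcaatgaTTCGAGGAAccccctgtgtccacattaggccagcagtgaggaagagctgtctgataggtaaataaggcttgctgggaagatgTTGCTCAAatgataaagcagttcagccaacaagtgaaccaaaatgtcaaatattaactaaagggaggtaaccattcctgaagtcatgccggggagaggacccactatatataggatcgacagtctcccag

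The C9 window held 1 C/EBP match, TTGCATAA, with its first base at position -132 from the start. The Fgb window held 1 C/EBP match, TTGCTCAA, at position -80 and 1 STAT match, TTCGAGGAA, at position -162. The C8b and C6 windows held neither pattern. Of the 21 measured members 18 had a promoter in the table, and C2, Masp1 and Vwf did not. The C/EBP pattern was found in 5 of the 18 (C9, F11, F9, Fgb and Klkb1) and in 10.8% of all 32851 promoters. The STAT pattern was found in 4 of the 18 (F9, Fgb, Masp2 and Pros1) and in 8.3% of all promoters. The HNF4 pattern CAAAGTCCA and the Smad pattern GTCTAGAC were found in none of the 18, against 0.475% and 0.213% of all promoters. The patterns were searched on both strands, and no C/EBP match overlapped a STAT match in the printed windows. A match describes these letters and is not evidence of binding.

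The libraries differ in ways that bear on every value below. Ratios are read as sample over pool, a direction that the labels do not state. Titles name the pool first and the sample second, an order that does not settle it. The reading rests on 1 of the 2 probes of Tgfbr2, and every statement of higher or lower depends on it. Over all probes Pearson's correlation between libraries ranged from -0.32 to 0.52. The lowest value was that of Tgfbr2+/- replicate 5 with wild-type replicate 1 (Spearman's rho -0.35), so the direction of either column is not settled, and the wider differences are given with each of them turned in sign as well. Tgfbr2 differed by -0.47 ± 0.12 over the mean of its probes (exact two-sided permutation p = 0.0143, limma adjusted p = 0.516), and by -0.36 with wild-type replicate 1 turned and -0.31 with Tgfbr2+/- replicate 5 turned. Its 2 probes disagreed, with a difference of -0.88 for one (exact permutation p = 0.0286) and -0.07 for the other (exact permutation p = 0.457). The mean was below all wild-type libraries in 5 of 6 heterozygous ones, and the library labelled Tgfbr2+/- replicate 4, at 0.05, was not among them. The files used here hold ratios and no intensities, so the signal over background of each probe is unknown.

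None of the 7 complement genes and none of the 14 coagulation genes passed an adjusted p of 0.05 between the groups by limma, and neither did any other gene (0% of 16383). At an unadjusted p under 0.05 there were 2 complement genes, C9 and C2, both higher in Tgfbr2+/- liver, and 0 coagulation genes. Over all genes 5.54% passed that threshold, 2.97% higher and 2.57% lower. The groups overlapped for every one of the 21 members, and over all genes 0.726% lay entirely higher and 0.354% entirely lower in Tgfbr2+/- liver. The median difference of the complement genes was 0.09 and that of the coagulation genes 0.04, against 0.00 over all genes. Of the complement genes 5 of 7 had positive differences and of the coagulation genes 10 of 14, which is 71.4% of each, against 52.6% of all genes.

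**Figure D1:**
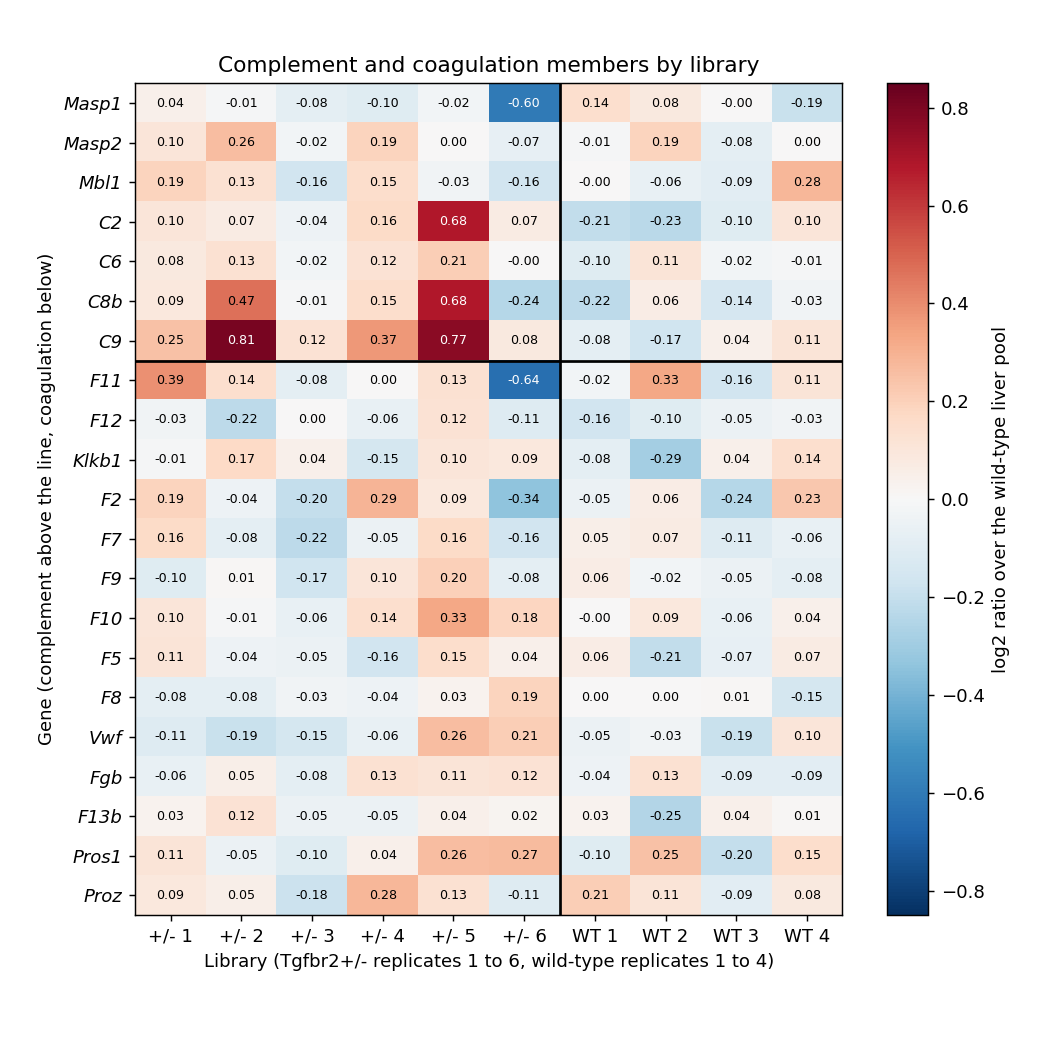
Log2 ratio over the wild-type liver pool (colour scale and printed values) of the 21 measured members (rows, complement above the horizontal line) in 6 Tgfbr2+/- and 4 wild-type libraries (columns, divided by the vertical line). The strongest positive values are those of C9 and C8b in Tgfbr2+/- replicates 2 and 5 and of C2 in replicate 5, and the strongest negative ones those of F11 and Masp1 in Tgfbr2+/- replicate 6.

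C9 was the member with the widest difference. It lay above the pool in all 6 heterozygous libraries, between 0.08 and 0.81 with a median of 0.31, against -0.08, -0.17, 0.04 and 0.11 in wild-type replicates 1 to 4. Heterozygous replicates 2 and 5 were highest at 0.81 and 0.77, and replicate 6, at 0.08, was the one heterozygous library below the highest wild-type library. The group means were 0.40 ± 0.32 in Tgfbr2+/- liver (SD, n = 6) and -0.02 ± 0.12 in wild type (SD, n = 4). The difference of 0.42 ± 0.15 [0.09, 0.75], a ratio of 1.34-fold, did not pass (limma unadjusted p = 0.0163, adjusted p = 0.778). It was 0.38 with wild-type replicate 1 turned in sign, 0.17 with Tgfbr2+/- replicate 5 turned, and 0.33 with both left out.

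C8b, which encodes the beta subunit of C8, the component that joins the complex before C9, was highest in the same libraries. It ranged between -0.24 and 0.68 in heterozygous libraries with a median of 0.12, against -0.22, 0.06, -0.14 and -0.03 in wild-type libraries. Replicates 5 and 2 were again the highest, at 0.68 and 0.47, but replicate 6 was below every wild-type library, so the spread in heterozygous liver covered the whole wild-type range. The difference was 0.28 ± 0.15 [-0.06, 0.61] (limma unadjusted p = 0.101, adjusted p = 0.917). It was 0.16 with wild-type replicate 1 turned and 0.05 with Tgfbr2+/- replicate 5 turned, and 0.13 with both left out. Without Tgfbr2+/- replicate 5 alone it was 0.18 (limma unadjusted p = 0.181), and without Tgfbr2+/- replicate 6 it was 0.36 (limma unadjusted p = 0.0217).

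C6, the subunit that joins the nascent complex before C7, varied over a narrower range. Its heterozygous values lay between -0.02 and 0.21 with a median of 0.10, against -0.10, 0.11, -0.02 and -0.01 in wild type. The highest library was again Tgfbr2+/- replicate 5, followed by replicate 2 at 0.13. The difference was 0.09 ± 0.06 [-0.04, 0.22] (limma adjusted p = 0.919), and was 0.04 when wild-type replicate 1 was turned in sign and 0.02 when Tgfbr2+/- replicate 5 was. The 3 terminal genes together averaged 0.23 ± 0.24 in Tgfbr2+/- liver and -0.04 ± 0.07 in wild type (SD over libraries, n = 6 and 4), and were at 0.47 and 0.55 in Tgfbr2+/- replicates 2 and 5.

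C2 encodes the protease that, bound to C4b, forms the C3-cleaving enzyme of the classical and lectin routes. Its heterozygous values lay between -0.04 and 0.68 with a median of 0.09, against -0.21, -0.23, -0.10 and 0.10 in wild type. Tgfbr2+/- replicate 5, at 0.68, stood far from the other heterozygous libraries, which reached 0.16 at most. The difference was 0.28 ± 0.13 [0.00, 0.56] (limma unadjusted p = 0.0468, adjusted p = 0.900). Without Tgfbr2+/- replicate 5 it was 0.18 ± 0.07 (limma unadjusted p = 0.0289, adjusted p = 0.900). With that library turned in sign it was 0.06. With wild-type replicate 1 turned it was 0.18. Replicate 2, high for C9 and C8b, was at 0.07 for C2.

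**Figure D2:**
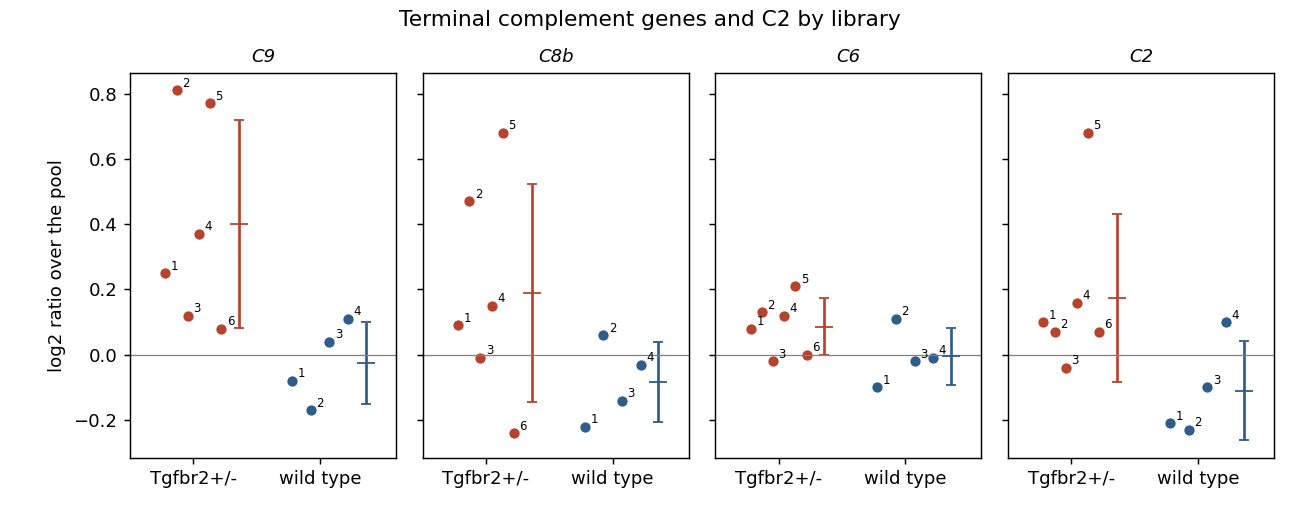
Log2 ratio over the pool of C9, C8b, C6 and C2 in each library (points, with replicate numbers) of Tgfbr2+/- and wild-type liver, with the group mean and SD as a bar beside the points. C9 reaches 0.81 and 0.77 in Tgfbr2+/- replicates 2 and 5, and for all 4 genes the groups overlap.

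Masp1, Masp2 and Mbl1, the measured members of the lectin route's first steps, had differences between -0.13 and 0.05. The serine protease gene Masp1 lay between -0.60 and 0.04 in heterozygous libraries with a median of -0.05, against 0.14, 0.08, -0.00 and -0.19 in wild type. The -0.60 was that of replicate 6 alone, and the other heterozygous libraries were at -0.10 or above. The difference was -0.13 ± 0.12 [-0.39, 0.13] (limma adjusted p = 0.931). It was -0.04 without that library, and -0.06 when the sign of wild-type replicate 1 was turned. Masp2, the protease that cleaves C4 and C2, differed by 0.05 ± 0.08 [-0.12, 0.22], and the lectin gene Mbl1 by -0.01 ± 0.10 [-0.22, 0.20]. Masp2 was highest in Tgfbr2+/- replicate 2 at 0.26, while Mbl1 was highest in wild-type replicate 4 at 0.28. The 3 genes together averaged -0.01 ± 0.15 in Tgfbr2+/- liver and 0.02 ± 0.06 in wild type (SD over libraries, n = 6 and 4).

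Among coagulation genes every difference lay between -0.08 and 0.10, and for all 14 the 95% interval stayed within 0.5 of 0 on the log2 scale. For complement the same held for 4 of 7 genes, the exceptions being C9, C8b and C2. The smallest unadjusted limma p among the 14 coagulation genes was 0.211, that of F10, and the smallest adjusted p was 0.920. The highest upper bound was 0.30, that of F11. Such intervals do not show that the groups are alike.

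**Figure D3:**
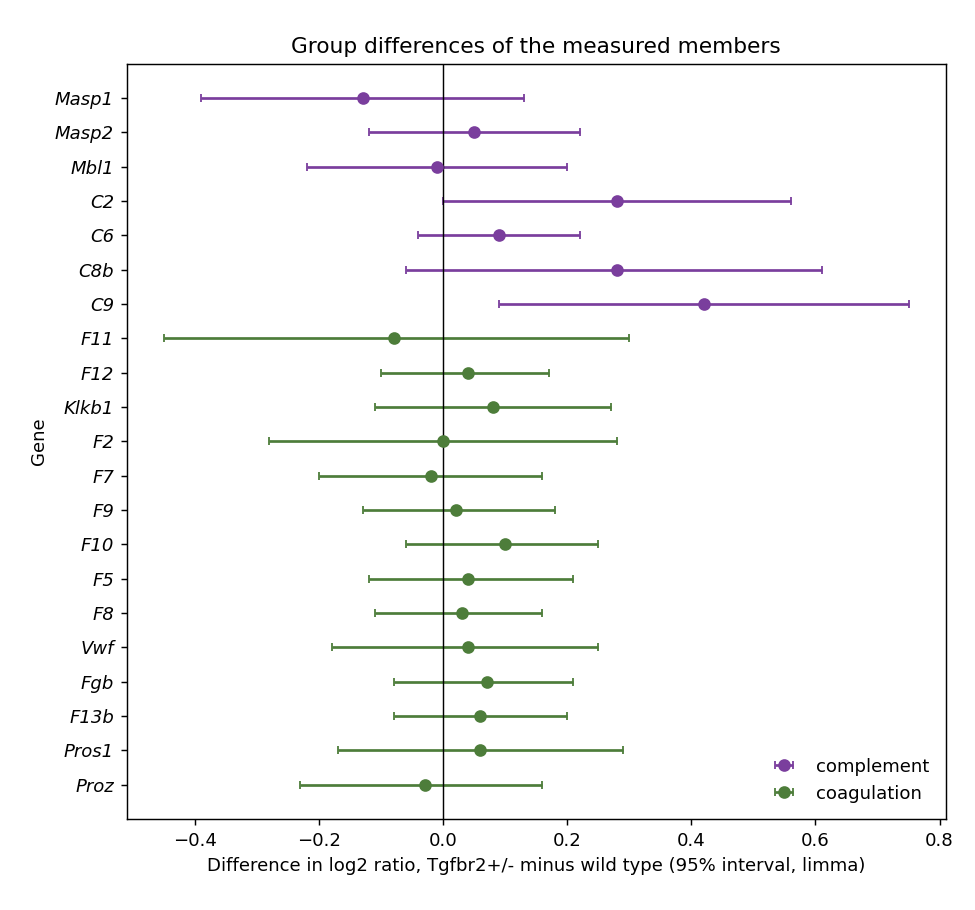
Difference in log2 ratio, Tgfbr2+/- minus wild type, with its 95% interval from limma (points and bars), for each measured complement gene (upper 7 rows) and coagulation gene (lower 14 rows). The interval of C9 lies above 0, that of C2 starts at 0.00, and all coagulation intervals include 0.

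In the contact system, F11, the protease that activates F9, was the coagulation gene that varied most over libraries (SD 0.29 over all 10). It lay between -0.64 and 0.39 in heterozygous libraries with a median of 0.07, against -0.02, 0.33, -0.16 and 0.11 in wild type. The lowest value was that of Tgfbr2+/- replicate 6, the library in which Masp1 was also lowest. Its difference was -0.08 ± 0.17 [-0.45, 0.30], and 0.05 without that library. F12, the zymogen that starts contact activation, differed by 0.04 ± 0.06 [-0.10, 0.17], and Klkb1, which encodes plasma prekallikrein, by 0.08 ± 0.09 [-0.11, 0.27].

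Among the vitamin K-dependent procoagulants, F2, F7 and F9 had group means between -0.03 and 0.00, and F10 averaged 0.11 in Tgfbr2+/- liver. F2, prothrombin, lay between -0.34 and 0.29 in heterozygous libraries with a median of 0.03, against -0.05, 0.06, -0.24 and 0.23 in wild type, a difference of -0.00 ± 0.13 [-0.28, 0.28]. Its spread was an SD of 0.24 in Tgfbr2+/- liver (n = 6) and 0.20 in wild type (n = 4). F7 differed by -0.02 ± 0.08 and F9, the X-linked gene lost in haemophilia B, by 0.02 ± 0.07. F10 had the highest difference of the 14, 0.10 ± 0.07 [-0.06, 0.25], and 4 of 6 heterozygous libraries exceeded the wild-type maximum, with 0.33 in replicate 5. With that replicate turned in sign the F10 difference was -0.02.

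The cofactor genes F5 and F8 and the carrier gene Vwf, whose product protects F8 in plasma, differed by 0.04 ± 0.07, 0.03 ± 0.06 and 0.04 ± 0.10. Vwf was high in Tgfbr2+/- replicates 5 and 6, at 0.26 and 0.21, and between -0.19 and -0.06 in the other 4 heterozygous libraries, against -0.05, -0.03, -0.19 and 0.10 in wild type. At an unadjusted limma p under 0.05, 2 of 16 endothelial markers were higher and 0 lower, against 2.97% and 2.57% of all genes. Differences of the 16 were positive for 8 and negative for 8, with a median of -0.00. The mean of these markers lay between -0.05 and 0.08 in heterozygous libraries and between -0.03 and 0.00 in wild type. In replicate 5, where Vwf was highest, the endothelial mean was -0.05, and in replicate 6 it was 0.08. In whole liver RNA a change in the number of cells of a type and a change in RNA per cell cannot be told apart.

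Fgb, the only fibrinogen chain gene measured, lay between -0.08 and 0.13 in heterozygous libraries with a median of 0.08, against -0.04, 0.13, -0.09 and -0.09 in wild type. No heterozygous library exceeded the highest wild-type one, and the difference was 0.07 ± 0.06 [-0.08, 0.21] (limma adjusted p = 0.934). F13b, the carrier subunit of the enzyme that cross-links fibrin, differed by 0.06 ± 0.06 [-0.08, 0.20]. Wild-type replicate 2 was at -0.25 for F13b, away from the other wild-type libraries at 0.01 to 0.04. The anticoagulant gene Pros1, whose product protein S is the cofactor of activated protein C, differed by 0.06 ± 0.10 [-0.17, 0.29]. Proz, whose product protein Z guides an inhibitor to activated F10, differed by -0.03 ± 0.09 [-0.23, 0.16].

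Complement and coagulation means were set side by side in each library. The complement mean was 0.12, 0.27, -0.03, 0.15, 0.33 and -0.13 in Tgfbr2+/- replicates 1 to 6, against -0.07, -0.00, -0.06 and 0.04 in wild-type replicates 1 to 4. The coagulation mean was 0.06, -0.01, -0.09, 0.03, 0.15 and -0.02 in Tgfbr2+/- replicates 1 to 6, against -0.01, 0.01, -0.09 and 0.04 in wild-type replicates 1 to 4. The complement mean was thus above every wild-type library in 4 of 6 heterozygous libraries and below every one in replicate 6, while the coagulation mean exceeded the wild-type range in replicates 1 and 5. The difference between the group means was 0.14 for complement and 0.03 for coagulation, given without a test. The complement difference was 0.03 and the coagulation difference -0.02 with Tgfbr2+/- replicate 5 turned in sign, and 0.08 and 0.00 with that library and wild-type replicate 1 both left out. Complement exceeded coagulation by 0.28 in replicate 2 and by 0.18 in replicate 5, and lay 0.11 below it in replicate 6 (complement minus coagulation -0.11). In wild type this margin stayed between -0.06 and 0.03.

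The libraries that stood out for C9 did not stand out alike for the rest. Tgfbr2+/- replicate 5 was above the pool for 19 of 21 members, including all 14 coagulation genes, and held the highest value of 8 members. Replicate 2 was above the pool for 12 members, 6 of each cascade, and in it the coagulation mean was -0.01. Replicate 3 was above the pool for 3 of 21 members, and wild-type replicate 3 for 4 of 21, so a low library occurred in both groups. Replicate 6 was above the pool for 2 of 7 complement genes and 8 of 14 coagulation genes.

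Acute phase genes were compared in the same libraries, because many complement and coagulation genes belong to that response. The mean of 20 acute phase genes was -0.47, -0.50, -0.72, 0.01, 0.48 and -0.37 in Tgfbr2+/- replicates 1 to 6, against -0.64, -0.35, -0.64 and -0.46 in wild-type replicates 1 to 4. Of these 20 genes 1 was higher and 0 lower at an unadjusted limma p under 0.05, against 2.97% and 2.57% of all genes. Replicate 5, high for C9, C8b and C2, had the highest acute phase mean. Replicate 4, with an acute phase mean of 0.01, also lay above the wild-type range, and its C9 was at 0.37. Replicate 2, in which C9 was highest of all, had an acute phase mean within the wild-type range. The part of the acute phase level in the complement values of these libraries was not tested. Hepatocyte marker genes averaged between -0.12 and 0.03 in heterozygous libraries and between -0.09 and 0.05 in wild type. Of them 0 of 12 had an unadjusted limma p under 0.05, against 5.54% of all genes.

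**Figure D4:**
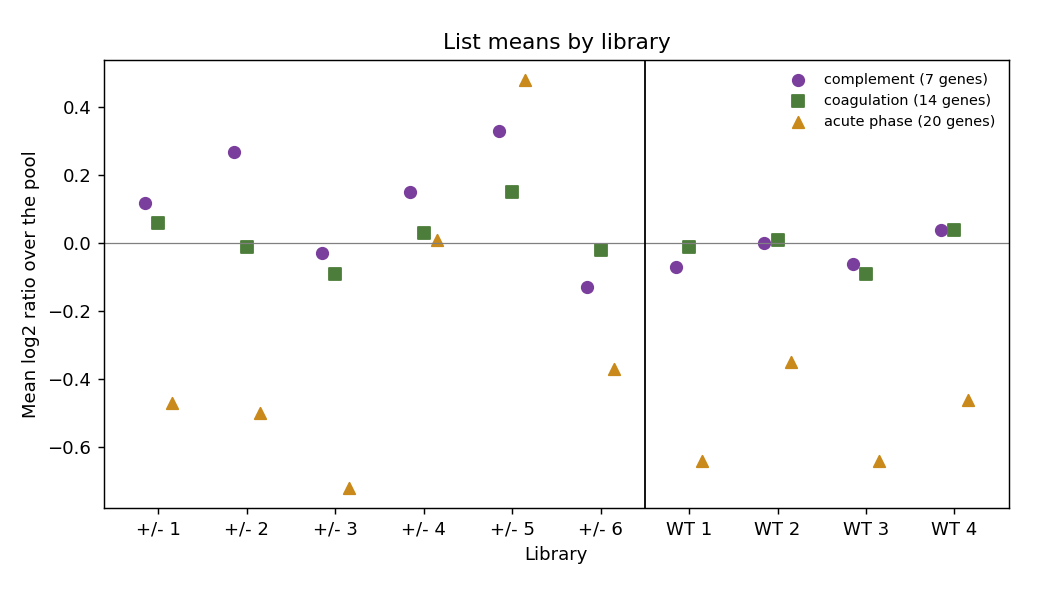
Mean log2 ratio over the pool of the 7 complement genes (circles), 14 coagulation genes (squares) and 20 acute phase genes (triangles) in each library, Tgfbr2+/- replicates left of the vertical line and wild-type replicates right of it. The complement mean is 0.27 and 0.33 in Tgfbr2+/- replicates 2 and 5, while the acute phase mean is -0.50 and 0.48 in the same libraries.

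Members differed in how far they varied over the 10 libraries. C9 (SD 0.33), C8b (SD 0.29), F11 (SD 0.29) and C2 (SD 0.26) varied most, and C9 varied more than 96.5% of all genes. F8, F12, C6, F13b and Fgb varied least, with SDs of 0.09 to 0.10. The median SD was 0.21 among complement genes and 0.13 among coagulation genes, against 0.11 among all genes. Within the groups the SD of C9 was 0.32 in Tgfbr2+/- liver and 0.12 in wild type, and that of C8b was 0.33 and 0.12. The SD over all 10 libraries also holds the difference between the group means, 0.42 for C9 and 0.28 for C8b.

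A further comparison tested each group's mean ratio against 0, the level of the pool. No member passed in Tgfbr2+/- liver, where 0.0122% of all genes did, and none in wild type, where no gene did (0%). At an unadjusted limma p under 0.05 C9, C6 and F10 lay above the pool in Tgfbr2+/- liver, 3 of 21 members, against 11.1% of all genes, and none lay below it, against 7.21% of all genes. The adjusted p was 0.131 for C9, 0.254 for C6 and 0.235 for F10. In wild type 0 of 21 members had an unadjusted p under 0.05, against 4.14% of all genes. This comparison shares its heterozygous libraries with the one between groups and leaves out the spread of the pool. The sample titles do not say whether the wild-type mice were also in the pool, so wild-type ratios may not be independent of it.

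Other genes of the complement system were read from a list of 42 symbols, of which 25 were measured. At an unadjusted limma p under 0.05, 5 of the 25 were higher and 1 lower, against 2.97% and 2.57% of all genes. None of the 25 passed over all genes by limma, and their median difference was 0.07. The 4 of smallest p were Vsig4, C1qc, Fcna and C1qb, all of which are expressed by macrophages in mouse. Vsig4 encodes a receptor by which Kupffer cells, the macrophages of liver, take up C3-coated particles. It lay between 0.14 and 0.45 in heterozygous libraries with a median of 0.19, against -0.28, -0.15, -0.17 and -0.33 in wild type, with no overlap (difference 0.48 ± 0.08, limma adjusted p = 0.120). C1qc, a chain of the C1q molecule that starts the classical route, lay between -0.02 and 0.32 with a median of 0.26, against -0.20, -0.07, -0.14 and -0.28 in wild type (0.39 ± 0.07, limma adjusted p = 0.187). C1qc passed in 1 of 19 alternatives, the one without Tgfbr2+/- replicate 3 (0.44, limma adjusted p = 0.0227). That library was its lowest heterozygous one, so leaving it out must raise the difference, and 10 genes passed in that fit. C1qb differed by 0.27 ± 0.08 and Fcna, a ficolin that starts the lectin route, by 0.50 ± 0.11. When the sign of wild-type replicate 1 was turned, the differences were 0.34 for Vsig4, 0.29 for C1qc, 0.34 for Fcna and 0.17 for C1qb, and with Tgfbr2+/- replicate 5 turned they were 0.44, 0.29, 0.39 and 0.21. The wild-type maximum was exceeded by all 6 heterozygous libraries for C1qc, by 5 for Fcna and by 4 for C1qb.

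Kupffer cell and macrophage markers differed in the same direction as these 4 genes. The 13 measured markers also include Vsig4. At an unadjusted limma p under 0.05, 9 of the 13 were higher and 0 lower, against 2.97% and 2.57% of all genes. The mean of the markers lay between -0.00 and 0.27 in heterozygous libraries and between -0.23 and -0.14 in wild type. The part of this shift in the values of Vsig4, C1qc, Fcna and C1qb was not tested. In Tgfbr2+/- replicate 6, which had the highest macrophage mean, 0.27, C9 was at 0.08, C8b at -0.24, C6 at -0.00 and C2 at 0.07. The part of the macrophage level in these 4 genes was not tested either.

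Other genes of coagulation and fibrinolysis were read from a list of 31 symbols, of which 25 were measured. At an unadjusted limma p under 0.05, 4 of the 25 were higher and 1 lower, against 2.97% and 2.57% of all genes. None of the 25 passed over all genes by limma, and their median difference was 0.02. Serpina10 encodes the inhibitor that protein Z guides to activated F10, and it differed by 0.30 ± 0.10 (limma adjusted p = 0.732). Its heterozygous values lay between -0.11 and 0.43 with a median of 0.12, against -0.11, -0.27, -0.12 and -0.01 in wild type. Its partner Proz did not share this difference (-0.03 ± 0.09). Procr, the endothelial receptor of protein C, differed by 0.29 ± 0.11 and Tfpi, the inhibitor of the tissue factor branch, by 0.34 ± 0.13. Tfpi was at 0.63 in Tgfbr2+/- replicate 6 and at -0.10 in the library labelled Tgfbr2+/- replicate 4. Plaur, the receptor of urokinase, differed by -0.17 ± 0.06 and was below all wild-type libraries in 5 of 6 heterozygous ones. Adjusted p-values by limma were 0.797 for Procr and for Plaur and 0.838 for Tfpi. With Tgfbr2+/- replicate 5 turned in sign, the difference was 0.15 for Serpina10, 0.18 for Procr, -0.09 for Plaur and 0.33 for Tfpi. With wild-type replicate 1 turned, it was 0.24 for Serpina10, 0.20 for Procr, -0.07 for Plaur and 0.28 for Tfpi. Platelet markers, 8 measured, averaged between -0.03 and 0.19 in heterozygous libraries and between -0.03 and 0.03 in wild type. Of them 0 of 8 had an unadjusted limma p under 0.05, against 5.54% of all genes.

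**Figure D5:**
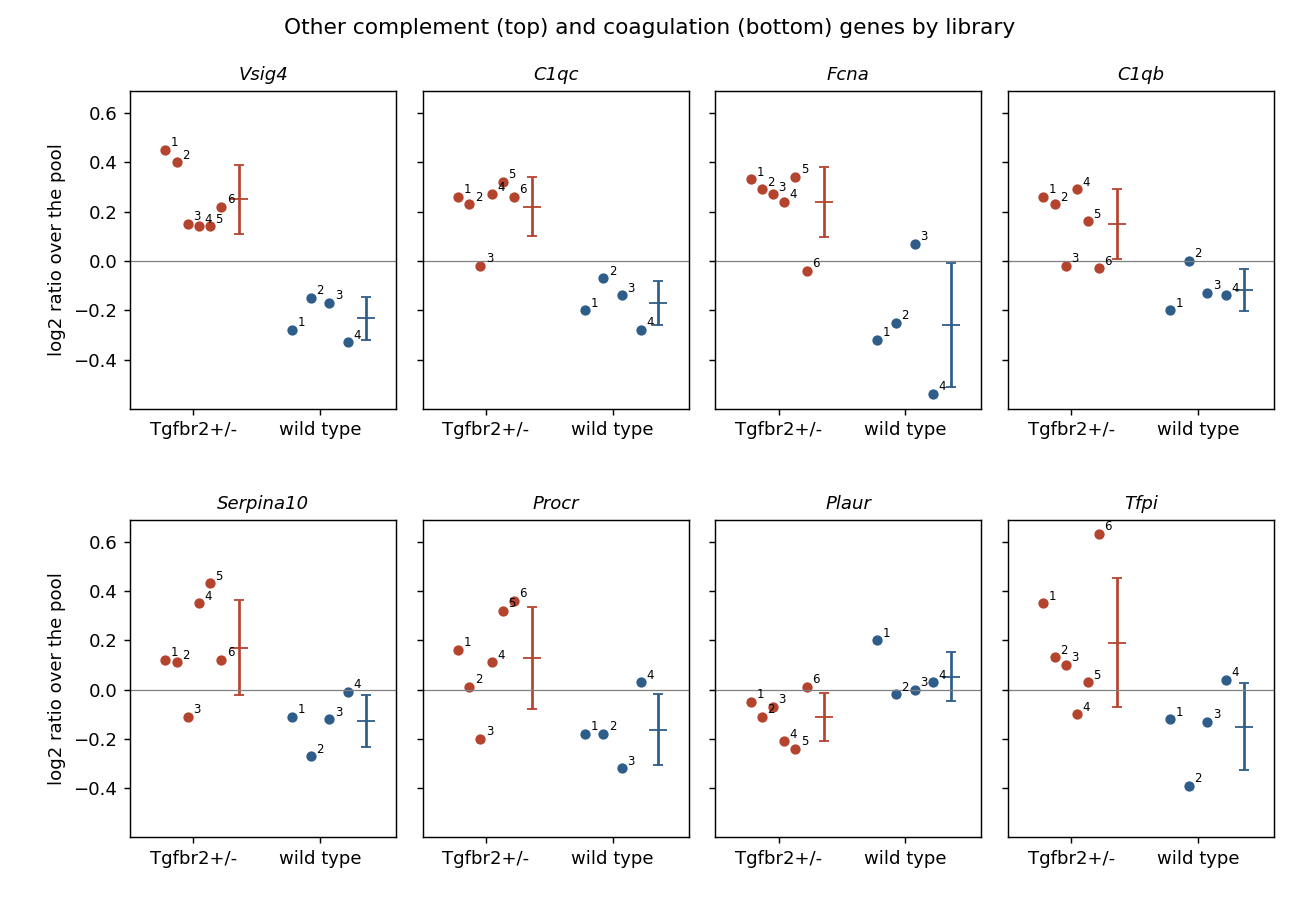
Log2 ratio over the pool of the 4 other complement genes (top row) and 4 other coagulation genes (bottom row) of smallest p, in each library (points, with replicate numbers) of Tgfbr2+/- and wild-type liver, with the group mean and SD as a bar beside the points. For Vsig4 and C1qc all 6 Tgfbr2+/- libraries lie above all 4 wild-type ones, and for the other 6 genes the groups overlap.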

How the data were processed

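The deposited values are log10 ratios of a mouse's liver RNA and the wild-type pool on 2-colour arrays. Per the labels' protocols, RNeasy-purified, DNase-treated RNA was amplified with aminoallyl MessageAmp II chemistry. Dyes were Cy3 and Cy5, with swaps according to the design text, and how swaps entered the ratios is not stated. Scanner software, background correction and normalization are not given in the sources used here. A log10 base was inferred from 8 values at exactly 2 or -2. Column medians lay between 0.0013 and 0.0047 on the log10 scale, so the columns are centred, while scale and direction are inferred.

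The ratios were put on the log2 scale (times 3.32). Of 23438 probes 17726 carry 1 symbol, 50 several and 5662 are unnamed here, and probes of a symbol were averaged to 16383 genes. Differences were fitted with limma 3.58.1 in R 4.3.3 (lmFit and eBayes, two-sided). No symbol list was tested as a set. The fit was tested on simulated data with known changes. Tgfbr2 was also tested by exact permutation over all 210 splits, whose smallest p is 0.00476.

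Members and lists were chosen with earlier results of these data known. The text names Tgfbr2, every measured member, and the 4 genes of smallest p among the other genes of each cascade. Nothing says that replicates shared a batch, and p-values measure the spread between these mice. Same-numbered libraries of both groups had deviations from their group means that correlated by 0.01 to 0.30, and not every pair was over 0.1, so the numbers were not taken to pair the mice.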

Additional observations from a re-analysis of the deposited data

Results flagged for a closer look

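Of 64 groups of libraries, 2 for each of 32 results, 6 held a library whose gap to the nearest other library exceeded Dixon's 95% limit, and chance gives about 1 in 20. C2 was at 0.68 in Tgfbr2+/- replicate 5, with the other heterozygous libraries at -0.04 to 0.16. Masp1 was at -0.60 in Tgfbr2+/- replicate 6, with the others at -0.10 to 0.04. Among the other complement genes, C1qc was at -0.02 in Tgfbr2+/- replicate 3, with the others at 0.23 to 0.32, and Fcna was at -0.04 in Tgfbr2+/- replicate 6, with the others at 0.24 to 0.34. In wild type F8 was at -0.15 in replicate 4, with the others at 0.00 to 0.01, and F13b was at -0.25 in replicate 2, with the others at 0.01 to 0.04.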

How the results depend on the processing

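Over 21 members the difference kept its sign in every alternative for 8, namely C9, C8b, C6, C2, Masp1, Masp2, Klkb1 and Fgb, and no member passed an adjusted p of 0.05 in any. The difference for C9 ranged between 0.17 and 0.48 and that of C2 between 0.06 and 0.35. The other 13 members, all but Mbl1 of coagulation, turned sign at least once, all at differences between -0.16 and 0.14, and the cause was not tested. The Tgfbr2 difference was -0.88 when its more variable probe stood for the gene. Leaving out 1 mouse at a time, the differences ranged over -0.08 to 0.07 for F2, -0.05 to 0.07 for Mbl1, -0.06 to 0.02 for F7, -0.09 to 0.01 for Proz, -0.02 to 0.05 for F9, -0.01 to 0.08 for Vwf, -0.16 to 0.05 for F11, -0.01 to 0.04 for F8, -0.01 to 0.08 for F5, -0.01 to 0.09 for F13b and -0.01 to 0.14 for Pros1. With wild-type replicate 1 turned in sign, F12 was at -0.04, F7 at 0.01 and Proz at 0.07. With Tgfbr2+/- replicate 5 turned, F12 was at -0.00, F9 at -0.04, F10 at -0.02, F5 at -0.01, Vwf at -0.05 and Pros1 at -0.03. With both left out, an alternative chosen after seeing the data, F12, Vwf and Pros1 were at -0.02. Quantile normalization put F2 at 0.01. Array weights put Mbl1 at 0.04, F11 and F2 at 0.07, F7 at 0.02, and F9, F8 and Vwf at -0.01.

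With the replicate number as a block, Mbl1 and F11 were at 0.05, F2 at 0.06, F9 at -0.01, F5 at -0.00, F8 and Pros1 at -0.03 and Vwf at -0.08, and C9 at 0.41. The numbers were not shown to pair the mice, since same-numbered deviations correlated by 0.09, 0.09, 0.30 and 0.01. With the block 0 genes were called and 1518 had an unadjusted limma p under 0.05, against 908 without it, where all 10 libraries entered the difference.

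Between the groups 0 genes were called in each alternative except without Tgfbr2+/- replicate 3, where 10 were (0 to 10 over the mice left out). Genes at an unadjusted p under 0.05 numbered 510 with Tgfbr2+/- replicate 5 turned, 584 with wild-type replicate 1 turned, 597 with both left out, and 582 without wild-type replicate 1. They numbered 1351 with array weights, 1255 without wild-type replicate 4, 1181 without Tgfbr2+/- replicate 6 and 1155 without Tgfbr2+/- replicate 3. The more variable genes, which are fewer, held 553. Against the pool, Tgfbr2+/- liver had 2 called genes, and 0 to 48 over the mice left out, with 48 without Tgfbr2+/- replicate 3 and 10 without wild-type replicate 4. It had 10 with array weights or among the more variable genes, 1 with quantile normalization, with wild-type replicate 1 turned, with both libraries left out or with probes not averaged (also chosen after seeing the data), and 0 with Tgfbr2+/- replicate 5 turned. Wild type had 0 to 1 against the pool, with 1 without Tgfbr2+/- replicate 5. With no intensities, the limit that signal over background sets on each value is unknown.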
